A study of Mus musculus with 50 samples.

Results

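The BCL2 family genes that set the threshold for mitochondrial cell death were followed in hippocampal microglia of mice raised under control conditions (CTR) or early-life stress (ELS). The 10 genes were taken by their symbols from the 53700 genes counted in each mouse. They are the survival genes Bcl2, Bcl2l1, Mcl1, Bcl2a1a, Bcl2a1b and Bcl2a1d, the BH3-only genes Bcl2l11 and Bbc3, and the effectors Bax and Bak1. All 10 were found and all 10 passed the filter on low counts, which left 16696 genes.

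Proteins of this family decide whether the outer mitochondrial membrane is opened. The effectors BAX and BAK form the pores, the survival proteins (BCL2, BCL-XL, MCL1 and A1) hold them in check, and the BH3-only proteins (BIM, PUMA) release that check. MCL1 and A1 are short-lived proteins, and microglia are long-lived cells that depend on signals through the CSF1 receptor.

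All mice were male C57BL/6J. ELS mice were kept with limited bedding and nesting material from postnatal day 2 to postnatal day 9 (P9). Microglia were taken at P9 from 12 CTR and 13 ELS pups, or at P200 from adults injected intraperitoneally with PBS (7 CTR, 6 ELS) or with lipopolysaccharide (LPS, a bacterial cell wall component) at 1 mg/kg (7 CTR, 5 ELS) and killed 3 h later. Cells were sorted as CD45int CD11b+ from both hippocampi. Every mouse gave 1 library. Mouse labels hold a pair of numbers, of which the first is read here as the nest, although the labels do not define it, and some mice of a group shared a nest.

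Libraries held between 5152838 and 42231258 reads in genes, with a median of 19960409. Fewest genes were detected in 3 mice: P9 ELS mouse 3 of nest 19 with 12482 genes, P200 CTR PBS mouse 1 of nest 1 with 12854 and P9 ELS mouse 2 of nest 19 with 15731, and results that rest on them are given with and without them. Microglial markers were high everywhere: the 10-gene list that includes Csf1r, Cx3cr1, P2ry12 and Tmem119 summed to between 36292 and 81714 CPM (reads of the gene scaled to a fixed library size, after TMM). Markers of T, B and NK cells summed to at most 1.42 CPM in any mouse. Each library is a bulk sample, so fewer expressing cells and less RNA per cell cannot be told apart.

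The A1 genes need their sequence shown first, because they are near copies and reads can be assigned to 1 of them only where they differ. All 3 lie on chromosome 9 in GRCm39, Bcl2a1d at chr9:88605338-88613967 on the minus strand, Bcl2a1a at chr9:88838953-88844472 and Bcl2a1b at chr9:89081262-89089889, both on the plus strand. Their coding sequences have 516 bases each without the stop codon. Bcl2a1a and Bcl2a1b differ at 11 of these, Bcl2a1a and Bcl2a1d at 7, and Bcl2a1b and Bcl2a1d at 6. The first 90 coding bases, at chr9:88839104-88839193 for Bcl2a1a, chr9:89081413-89081502 for Bcl2a1b and, on the minus strand, chr9:88613683-88613772 for Bcl2a1d, hold 6 of the 12 positions at which the 3 genes differ, printed in capitals:
Bcl2a1a: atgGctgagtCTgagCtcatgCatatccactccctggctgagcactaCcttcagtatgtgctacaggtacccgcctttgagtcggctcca
Bcl2a1b: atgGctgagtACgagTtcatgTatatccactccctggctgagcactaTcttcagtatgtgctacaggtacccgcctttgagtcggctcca
Bcl2a1d: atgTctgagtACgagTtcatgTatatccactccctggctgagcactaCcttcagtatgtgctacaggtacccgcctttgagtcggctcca

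Of all 50-base stretches of the canonical transcript, 31.0% for Bcl2a1a, 42.9% for Bcl2a1b and 20.5% for Bcl2a1d occurred in no transcript of another locus. With 100-base stretches the shares were 56.5%, 69.1% and 45.0%. In each of the other 7 genes the unique share was 99.8% or more at 50 bases. The counts of the A1 genes therefore come from part of each transcript, and levels cannot be compared between the 3 genes as closely as changes within 1 of them. Bcl2a1b also shares 48.5% of its transcript with the overlapping gene Gm29094 on the same strand. Only uniquely placed reads in exons were counted by the authors.

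The A1 promoters are shown because Bcl2a1a and Bcl2a1d rose after LPS in both conditions and Bcl2a1b in ELS mice, as given below by mouse. In the 250 bases before and 50 after the annotated start, each of the 3 held 1 match to TGANTCA, the letters recognised by AP-1 factors, which 7.15% of 21757 protein-coding promoters of this length also held (both strands searched). The 93 bases around the match are printed with the match in capitals, from chr9:88838810-88838902, chr9:89081119-89081211 and, on the minus strand, chr9:88613968-88614060. The windows of Bcl2a1a and Bcl2a1b were identical, and the match lay 100 to 94 bases before the start in these genes and 50 to 44 bases before it in Bcl2a1d:
Bcl2a1a: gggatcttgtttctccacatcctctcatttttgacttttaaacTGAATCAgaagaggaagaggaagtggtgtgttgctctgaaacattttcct
Bcl2a1b: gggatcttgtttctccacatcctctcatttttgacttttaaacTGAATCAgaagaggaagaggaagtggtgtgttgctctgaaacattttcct
Bcl2a1d: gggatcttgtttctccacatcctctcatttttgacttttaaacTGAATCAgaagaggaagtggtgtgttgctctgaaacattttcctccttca

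The NF-κB motif (4.87% of promoters), TGACGTCA (the CRE, 2.45%) and TTCNNNGAA (STAT factors, 8.82%) matched in none of the 10 promoters, and GTAAACA (FOXO factors, 3.15%) matched in those of Bcl2l11 and Bak1. A match is a run of letters and not a shown binding site, and no match says only that these letters are not in this window.

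The other 7 genes are spread over 5 chromosomes: Bcl2 at chr1:106465908-106642060, Bcl2l11 at chr2:127967958-128004476, Bcl2l1 at chr2:152622582-152673655, Mcl1 at chr3:95566026-95570487, Bbc3 at chr7:16042318-16052130, Bax at chr7:45111015-45116325 and Bak1 at chr17:27238784-27247983. Bak1 shares 437 bases of its transcript with Ggnbp1 on the opposite strand. Strand use in the counting is not stated in the sources used here, so reads of the pair may not be separated.

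Bcl2l1, which encodes BCL-XL, had the highest counts per transcript length, and Bcl2 itself was among the lowest. Counts of the A1 genes come from part of each transcript but are divided here by its whole length. Their values are therefore too low by an unknown amount, and their rank against Bcl2l1 and the other genes is not settled. In CTR mice after PBS, Bcl2l1 stood at 89.4 ± 13.1 CPM per kilobase of canonical transcript (SD, n = 7). Bcl2a1b followed at 45.7 ± 7.26, Bax at 38.5 ± 6.83, Bcl2a1a at 35.2 ± 7.04 and Mcl1 at 24.0 ± 3.18. Bax and Bcl2a1a lay within each other's SD, with the limit named above for the A1 genes. Bak1 came next at 7.24 ± 1.84, and Bcl2l11 at 5.18 ± 2.08 and Bcl2a1d at 4.78 ± 2.54 did not differ beyond their spread. Bcl2, at 0.713 ± 0.727, and Bbc3, at 0.135 ± 0.142, were at the bottom.

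**Figure D1:**
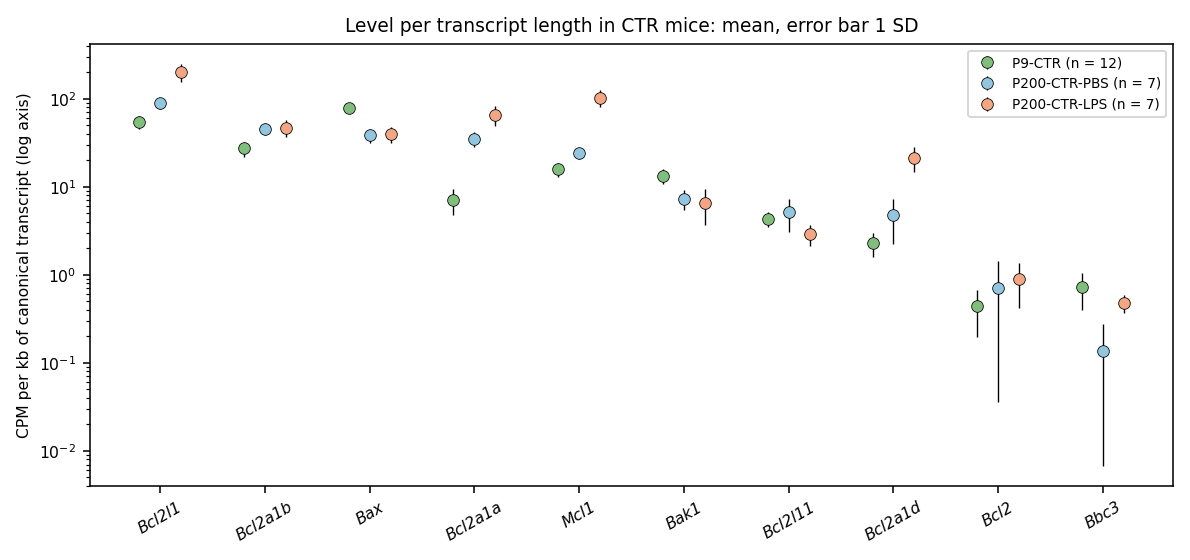
Mean level of each gene in CTR mice, in CPM per kilobase of canonical transcript on a log axis, for 12 mice at P9 and 7 mice each after PBS and LPS at P200, with bars of 1 SD; the bars of Bcl2 and Bbc3 after PBS reach down to about 0 and are drawn cut off. On this scale Bcl2l1 was highest in both P200 groups and Bax at P9, where it stood at 77.6, while Bcl2 and Bbc3 stayed under 1. The A1 genes are shown too low, since only part of each transcript can be counted.

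After LPS most survival genes rose and Bcl2l11 fell. In CTR mice 4 of the 10 members rose, Mcl1, Bcl2a1d, Bcl2l1 and Bcl2a1a, and 1 fell, Bcl2l11; 14.9% of the 16696 genes tested were called, 1458 higher and 1035 lower (edgeR quasi-likelihood test, adjusted p under 0.05 over all genes). In ELS mice the same 4 rose together with Bcl2a1b, and Bcl2l11 fell; 12.3% of the 16696 genes tested were called, 1235 higher and 824 lower. Of the members, 3 in CTR and 4 in ELS also changed over 2-fold, as 9.62% and 7.86% of all genes did. The median log2 fold change of the members was 0.61 in CTR and 0.88 in ELS, against 0.00 and -0.04 over all genes.

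**Figure D2:**
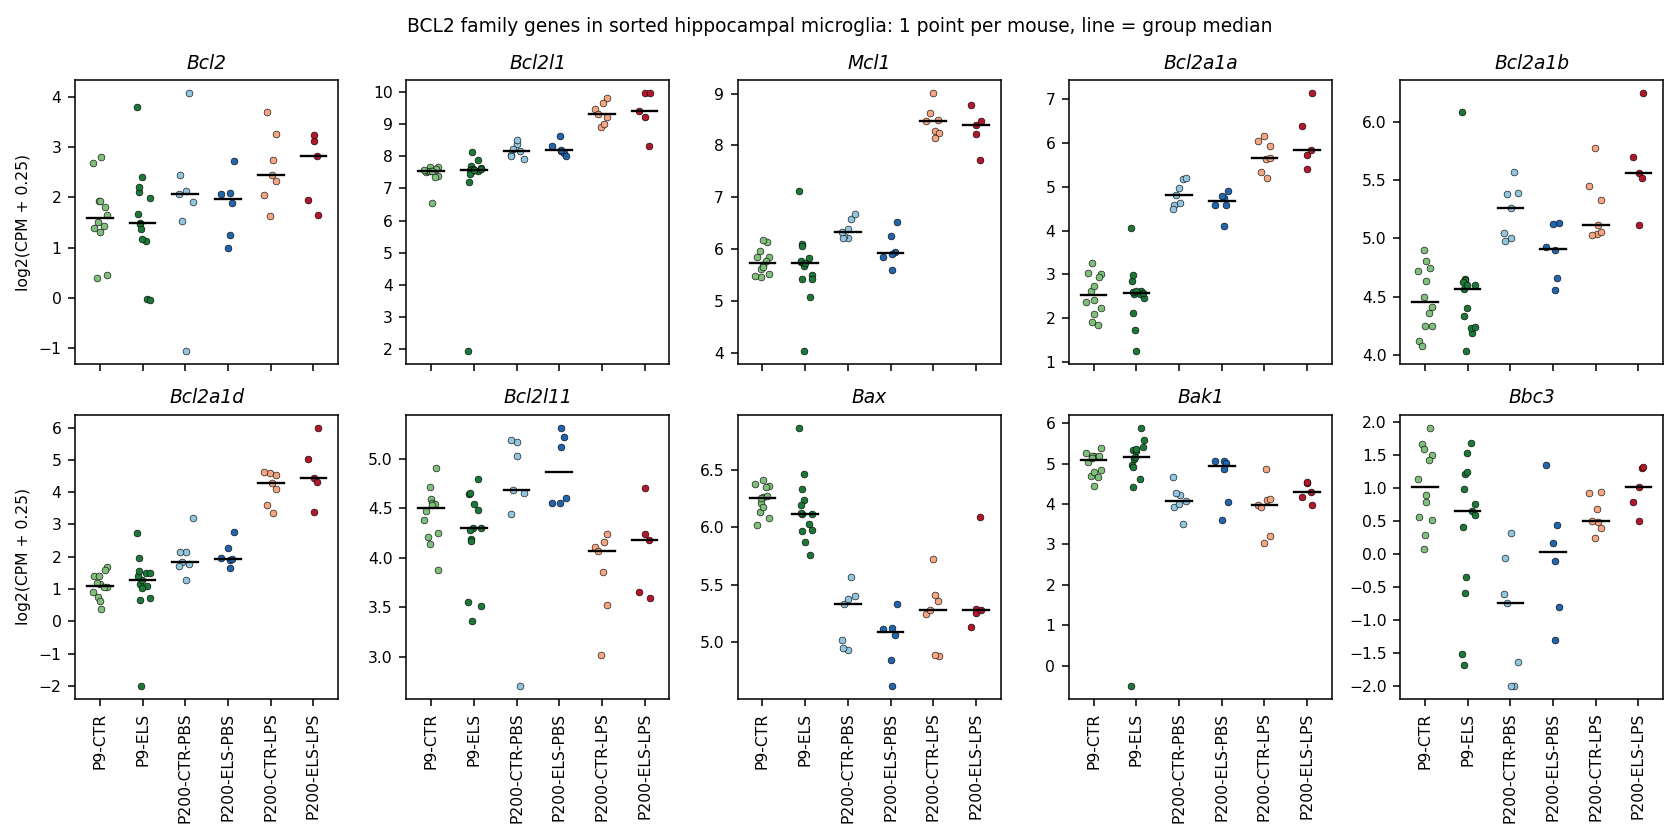
Level of each gene in each mouse as log2(CPM + 0.25), 1 point per mouse and a line at the group median, for the 6 groups. Mcl1 and Bcl2a1d after LPS lie above every PBS mouse, Bax is lower in all P200 groups than in most P9 mice, and single mice stand apart in Bcl2l1, Bak1 and Mcl1 of the P9 ELS group.

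Mcl1, whose protein binds BIM and BAK, gave the clearest response. Its level in CTR mice ran from 73.7 to 103 CPM (median 80.4) after PBS and from 282 to 515 CPM (median 354) after LPS. In ELS mice it ran from 48.4 to 91.5 CPM (median 60.5) after PBS, and the 5 LPS mice had 209, 297, 338, 354 and 437 CPM. No LPS mouse overlapped a PBS mouse in either condition. The rise was 4.30-fold in CTR (SE of the log2 fold change 0.23, adjusted p = 2.94e-10) and 4.97-fold in ELS (2.31, SE 0.26, adjusted p = 6.46e-10).

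Bcl2a1d started from a low level. CTR mice had 2.15 to 8.84 CPM (median 3.35) after PBS and 9.87 to 24.1 CPM (median 19.34) after LPS, and ELS mice had 2.90 to 6.55 CPM (median 3.58) after PBS and 10.2, 19.7, 21.2, 32.2 and 63.4 CPM after LPS. Again no LPS mouse overlapped a PBS mouse of its condition. The change was 4.46-fold in CTR (adjusted p = 2.91e-05) and 7.12-fold in ELS (adjusted p = 2.19e-06).

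Bcl2a1a also rose in both conditions. CTR mice had 22.3 to 36.4 CPM (median 28.0) after PBS and 36.6 to 71.6 CPM (median 50.3) after LPS, so that the groups only just separated. ELS mice had 17.06 to 29.9 CPM (median 25.3) after PBS and 42.3, 53.05, 56.8, 83.8 and 141 CPM after LPS. The log2 fold change was 0.90 (SE 0.27, adjusted p = 0.0172) in CTR and 1.61 (SE 0.31, adjusted p = 0.000112) in ELS.

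Bcl2a1b, the most counted of the 3 in PBS mice, stood at 31.3 to 47.1 CPM (median 38.1) after PBS and at 32.4 to 54.4 CPM (median 34.4) after LPS in CTR mice. The fold change there was 1.02 (log2 0.03, SE 0.21, adjusted p = 0.958). ELS mice had 23.3 to 34.9 CPM (median 29.9) after PBS and 34.5, 45.7, 47.0, 51.7 and 75.6 CPM after LPS, with overlap at the edge (log2 fold change 0.78, SE 0.24, adjusted p = 0.0199). The ELS call depended on single mice. The log2 fold change was 0.59 (adjusted p = 0.12) without ELS LPS mouse 1 of nest 20 and 0.72 (adjusted p = 0.0516) without ELS PBS mouse 1 of nest 11. Over 34 alternative fits it lay between 0.59 and 0.89, and the call was lost in 2. Many of the 34 left out a mouse outside this comparison and are not separate checks. Mouse 1 of nest 20 was the highest of its group for all 3 A1 genes. Since the A1 genes are near copies, their counts were also summed, Bcl2a1c included, and put through the same edgeR test. The sum rose in CTR (log2 fold change 0.65, SE 0.22, adjusted p = 0.0363) and in ELS (1.41, SE 0.25, adjusted p = 2.71e-05).

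Bcl2l1 also rose. CTR mice had 242 to 362 CPM (median 288) after PBS and 477 to 895 CPM (median 628) after LPS, with no overlap. In ELS mice it had 258 to 392 CPM (median 289.7) after PBS, and the LPS mice had 317, 590.3, 682, 992 and 993 CPM, of which the lowest lay within the PBS range. The log2 fold changes were 1.17 (SE 0.31, adjusted p = 0.00567) and 1.23 (SE 0.35, adjusted p = 0.0119). LPS groups lay wholly above the PBS groups for 4 members in CTR and 3 in ELS, as they did for 4.92% and 5.65% of all genes.

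Bcl2, the founding survival gene of the family, was low and scattered. It ran from 0.229 to 16.6 CPM (median 3.96) after PBS and from 2.86 to 12.8 CPM (median 5.21) after LPS in CTR mice. ELS mice had 1.74 to 6.35 CPM (median 3.69) after PBS and 2.89, 3.62, 6.80, 8.41 and 9.24 CPM after LPS. The log2 fold changes, 0.32 (SE 0.52) and 0.78 (SE 0.58), did not pass the test (adjusted p = 0.766 and 0.447). The 16.6 CPM came from mouse 1 of nest 1, and without the 3 mice with the fewest detected genes the CTR value was 0.99 (adjusted p = 0.13).

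Bcl2l11, which encodes the BH3-only protein BIM, moved the other way. CTR mice had 6.26 to 36.4 CPM (median 25.6) after PBS and 7.86 to 18.7 CPM (median 16.6) after LPS; the 6.26 came from mouse 1 of nest 1, with few detected genes, and the other 6 PBS mice had at least 21.5 CPM, above every LPS mouse. ELS mice had 23.3 to 39.6 CPM (median 29.3) after PBS and 11.8, 12.4, 17.9, 18.6 and 25.9 CPM after LPS. It fell in CTR (log2 fold change -0.83, SE 0.25, adjusted p = 0.0161; -0.998 and adjusted p = 0.00011 without the 3 mice with the fewest detected genes) and in ELS (log2 fold change -0.81, SE 0.28, adjusted p = 0.0495). The CTR call was lost in a fit of the compared groups alone (adjusted p = 0.0765). It was also lost with the nest number as a replicate block (log2 fold change -0.47, adjusted p = 0.299). The ELS call was at the threshold and was lost in 21 of 35 alternative fits, with its direction kept in each. Many of the 35 left out a mouse outside this comparison, and there the log2 fold change stayed at about -0.81. The fits are therefore not separate checks of the call or of its direction.

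Bbc3, which encodes PUMA, was barely counted after PBS. CTR mice had 0 to 0.993 CPM (median 0.350) after PBS, with 2 of 7 mice at 0, and 0.933 to 1.68 CPM (median 1.17) after LPS. ELS mice had 0.155 to 2.30 CPM after PBS and 1.17, 1.48, 1.77, 2.23 and 2.24 CPM after LPS. The log2 fold change was 1.81 (SE 0.65) in CTR and just missed the threshold (adjusted p = 0.0515), and it was 0.97 (SE 0.70, adjusted p = 0.427) in ELS. In CTR it passed in 7 of 35 alternative fits, DESeq2 (adjusted p = 0.0144) among them. Also among the 7 were the fits without ELS PBS mouse 1 of nest 11 or mouse 2 of nest 17, mice outside this comparison. There the log2 fold change was 1.81 and 1.80, so the 7 are not separate checks.

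The effectors showed no call. Bax stood at 30.1 to 47.2 CPM (median 40.0) after PBS and 29.1 to 52.4 CPM (median 38.5) after LPS in CTR mice, and at 24.3 to 39.9 CPM (median 33.7) after PBS in ELS mice, against 34.8, 37.9, 38.6, 38.9 and 67.8 CPM after LPS. Its log2 fold changes were 0.04 (adjusted p = 0.927) and 0.43 (adjusted p = 0.0893). The ELS value passed without the 3 mice with the fewest detected genes (0.43, adjusted p = 0.026). None of those mice was in the ELS groups compared here, and the log2 fold change was again 0.43. The 67.8 CPM came from ELS LPS mouse 2 of nest 11, and over 35 alternative fits the log2 fold change went down to 0.21. Bak1 stood at 11.0 to 25.3 CPM (median 16.5) after PBS and 7.93 to 28.9 CPM (median 15.5) after LPS in CTR mice. In ELS mice it stood at 11.8 to 33.1 CPM (median 30.6) after PBS and at 15.6, 17.9, 19.4, 22.9 and 22.9 CPM after LPS. Its log2 fold changes were -0.13 and -0.39, with adjusted p = 0.871 and 0.601.

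Some marker lists moved with LPS. The 10 neutrophil markers summed to at most 0.305 CPM in CTR PBS, 1.29 in ELS PBS and 1.89 in CTR LPS mice. In ELS LPS mice they summed to between 0.221 and 10.0 CPM. Ly6g and Retnlg were at 0 in every P200 mouse. In ELS LPS mice they were the only 2 of the 10 at 0 throughout, and 5 of the 10 reached 1 CPM in at least 1 mouse. The 5 astrocyte markers summed to between 301 and 503 CPM in CTR PBS and between 484 and 618 CPM in CTR LPS mice. In ELS they summed to between 315 and 455 CPM after PBS and between 422 and 585 CPM after LPS. In ELS PBS mice 2 of the 5 reached 1 CPM in any mouse, so 2 genes carried nearly the whole sum. In CTR PBS mice 5 reached 1 CPM, and in each LPS group 4 did. The sum is thus not a measure of the whole list. The 10 microglial markers summed to between 75774 and 81523 CPM in CTR PBS and between 64404 and 76993 CPM in CTR LPS mice, and to between 75369 and 81714 CPM and between 69261 and 78582 CPM in ELS. The part of these lists in the changes above was not tested.

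**Figure D3:**
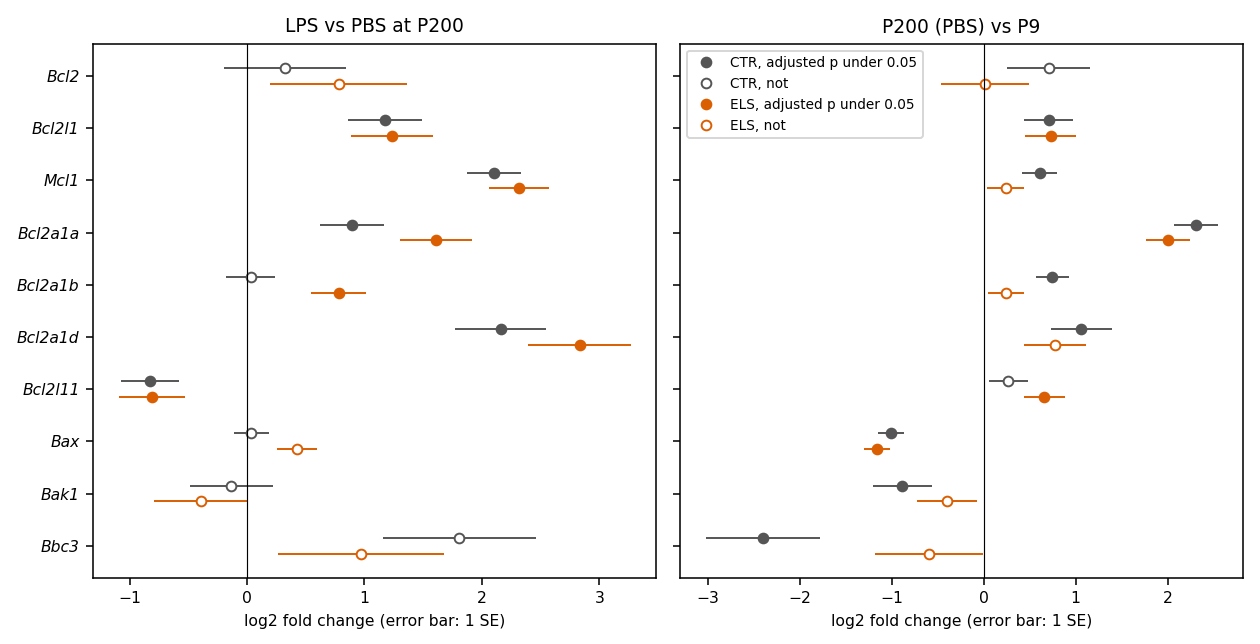
Log2 fold change of each gene with bars of 1 SE, for LPS against PBS at P200 and for P200 (PBS) against P9, in CTR and in ELS mice; filled points passed the test (adjusted p under 0.05). Mcl1, Bcl2a1d, Bcl2a1a and Bcl2l1 lie to the right of 0 and Bcl2l11 to the left for LPS, and Bcl2a1a and Bax lie on opposite sides of 0 for age.

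Between P9 and P200 most survival genes rose in CTR mice, and Bax fell in both conditions. In CTR mice 5 members rose (Bcl2a1a, Bcl2a1d, Bcl2a1b, Bcl2l1, Mcl1) and 3 fell (Bax, Bak1, Bbc3), and 44.1% of the 16696 genes tested were called, 2911 higher and 4445 lower. With the nest as a random effect (limma voom) 5 of the 8 were called, and Bcl2l1 (adjusted p = 0.128), Bcl2a1d (adjusted p = 0.0865) and Bak1 (adjusted p = 0.154) were not. In ELS mice 3 rose (Bcl2a1a, Bcl2l1, Bcl2l11) and 1 fell (Bax), and 42.2% of the 16696 genes tested were called, 2863 higher and 4182 lower. Over 2-fold changed 4 members in CTR and 2 in ELS, and 26.4% and 26.2% of all genes. The share of all genes called is known here for the main fit alone, so general changes in calling cannot be told apart in the other fits. Without the 3 mice with the fewest detected genes the ELS count was 8. Added were Bcl2a1d (log2 fold change 0.89, adjusted p = 0.00618), Bcl2a1b (0.43, adjusted p = 0.00722), Mcl1 (0.35, adjusted p = 0.0363) and Bak1 (-0.52, adjusted p = 0.0389). Among the 3 are P9 ELS mice 2 and 3 of nest 19, which were not left out on their own, so their part was not tested.

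Bcl2a1a changed most firmly of the survival genes. It ran from 3.35 to 9.24 CPM (median 5.50) in P9 CTR mice and from 2.11 to 16.4 CPM (median 5.65) in P9 ELS mice, below every P200 mouse. The rise was 4.95-fold in CTR (adjusted p = 1.79e-11) and 4.00-fold in ELS (adjusted p = 1.24e-09). Bcl2a1b ran from 16.7 to 29.7 CPM (median 21.7) in P9 CTR mice and rose 1.68-fold (adjusted p = 0.000774), without overlap with the adults.

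Bcl2a1b in P9 ELS mice ran from 16.1 to 67.6 CPM (median 23.5), the highest value in mouse 2 of nest 19, and its log2 fold change was 0.24 (SE 0.19, adjusted p = 0.323). Bcl2a1d ran from 1.04 to 2.95 CPM (median 1.91) in P9 CTR and from 0 to 6.38 CPM (median 2.18) in P9 ELS mice. It rose 2.09-fold in CTR (adjusted p = 0.00731), where without CTR PBS mouse 1 of nest 15 it was 0.76 on the log2 scale (adjusted p = 0.0608), and its ELS log2 fold change was 0.78 (adjusted p = 0.0587).

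Bcl2l1 ran from 93.9 to 203 CPM (median 188) in P9 CTR and from 3.60 to 279 CPM (median 190.1) in P9 ELS mice, where mouse 2 of nest 19 gave the 3.60 and the next lowest mouse had 147 CPM. It rose 1.63-fold in CTR (adjusted p = 0.0294) and 1.66-fold in ELS (adjusted p = 0.0296). Without CTR PBS mouse 1 of nest 5 or mouse 1 of nest 18 the CTR call was lost (adjusted p = 0.0518 and 0.0622), and without ELS PBS mouse 2 of nest 20 the ELS call was (adjusted p = 0.0801). In a fit of the compared groups alone the ELS call was lost too (adjusted p = 0.149), and without the 3 mice with the fewest detected genes the ELS log2 fold change was 0.67 (adjusted p = 0.000202). Mcl1 ran from 43.7 to 72.5 CPM (median 52.97) in P9 CTR mice and rose 1.52-fold (adjusted p = 0.00875). In P9 ELS mice it ran from 16.1 to 138 CPM (median 53.27), with mouse 3 of nest 19 lowest and mouse 2 of nest 19 highest, and the log2 fold change was 0.24 (SE 0.20, adjusted p = 0.354).

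Bax was the effector that fell most firmly. It ran from 64.7 to 84.9 CPM (median 76.4) in P9 CTR and from 53.8 to 117 CPM (median 69.1) in P9 ELS mice, above every PBS adult of the same condition. It fell in CTR (log2 fold change -1.01, SE 0.14, adjusted p = 3.56e-08) and in ELS (log2 fold change -1.16, SE 0.15, adjusted p = 4.28e-09). Bak1 ran from 21.5 to 41.8 CPM (median 33.7) in P9 CTR and from 11.0 to 25.3 CPM (median 16.5) in CTR PBS mice, a log2 fold change of -0.89 (adjusted p = 0.022). In ELS it ran from 0.456 to 58.9 CPM (median 35.3) at P9, mouse 2 of nest 19 lowest, and from 11.8 to 33.1 CPM (median 30.6) at P200 after PBS, with a log2 fold change of -0.40 (adjusted p = 0.343).

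Of the BH3-only genes, Bbc3 ran from 0.806 to 3.53 CPM (median 1.78) in P9 CTR mice and fell (log2 fold change -2.41, SE 0.62, adjusted p = 0.00141), while in P9 ELS mice it ran from 0.0626 to 2.98 CPM (median 1.33) and its log2 fold change was -0.60 (SE 0.59, adjusted p = 0.442). Bcl2l11 ran from 14.5 to 29.8 CPM (median 22.4) in P9 CTR and from 10.0 to 27.6 CPM (median 19.4) in P9 ELS mice. It rose 1.58-fold in ELS (adjusted p = 0.0134), a call lost with counts summed per nest (log2 fold change 0.68, adjusted p = 0.0918), and had a log2 fold change of 0.27 in CTR (adjusted p = 0.331), which was 0.44 (adjusted p = 0.03) without the 3 mice with the fewest genes. Bcl2, at 1.06 to 6.73 CPM (median 2.74) in P9 CTR and 0.726 to 13.6 CPM (median 2.57) in P9 ELS mice, passed the test in neither condition (log2 fold changes 0.70 and 0.01, and 0.04 and 0.38 without the 3 mice with the fewest genes).

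Several marker sums of other cells, and that of cell division, differed strongly between the ages. Border-associated macrophage markers summed to between 475 and 919.8 CPM at P9 and to at most 10.6 CPM in PBS adults. Markers of cycling cells summed to between 498 and 1867 CPM at P9 and to at most 16.9 CPM in PBS adults, and neuronal markers to between 29.8 and 132 CPM and to at most 11.9 CPM. Neutrophil markers summed to between 9.96 and 30.9 CPM at P9 and to at most 1.29 CPM in PBS adults. At P9 only 3 of these 10 genes in CTR and 1 in ELS reached 1 CPM in any mouse. Ly6g, Retnlg and Ltf were at 0 in every P9 mouse, so this sum does not show a difference in neutrophils. Microglial markers summed to between 36292 and 64751 CPM at P9 and between 75369 and 81714 CPM in PBS adults. Myelin was removed from the adult but not from the P9 samples, so age and preparation cannot be told apart, and the part of these lists in the age changes was not tested.

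Between ELS and CTR, none of the 10 genes passed the threshold. At P9, 0 members passed the edgeR test, as did 0% of all genes, and at P200 after LPS 0 members passed, again beside 0% of all genes. At P200 after PBS 0 members passed, beside 0.168% of all genes. No member had an unadjusted p under 0.05 in any of the 3 comparisons. DESeq2, the likelihood-ratio test and limma voom also called 0 members in each, and the share of all genes was not taken in those fits.

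The largest differences in value between ELS and CTR after PBS were in Bbc3 (0.904 ± 0.767 CPM, n = 6, against 0.362 ± 0.380 CPM, n = 7; 2.46-fold, SE of the log2 fold change 0.66, adjusted p = 0.539) and Bak1 (25.9 ± 9.43 against 17.28 ± 4.40 CPM; log2 fold change 0.58, SE 0.36, adjusted p = 0.665). Mcl1 stood at 65.8 ± 15.5 CPM in ELS and 83.8 ± 11.08 CPM in CTR (log2 fold change -0.35, SE 0.23, adjusted p = 0.694), and the ranges overlapped. The log2 fold changes of the other 7 genes lay between -0.52 for Bcl2 and 0.22 for Bcl2l11, and that of Bcl2 was 0.15 without the 3 mice with the fewest detected genes. After LPS all 3 A1 genes had higher means in ELS, with log2 fold changes of 0.49 for Bcl2a1a, 0.40 for Bcl2a1b and 0.68 for Bcl2a1d and adjusted p = 1 for each. Without ELS LPS mouse 1 of nest 20 these were 0.14, 0.21 and 0.18. For the summed A1 genes the log2 fold change was 0.50 (SE 0.24, edgeR quasi-likelihood test, unadjusted p = 0.0417). It did not pass after adjustment, and mouse 1 of nest 20 had the highest sum, 282 CPM. The other 7 genes lay between -0.14 for Mcl1 and 0.46 for Bbc3. At P9 the log2 fold changes of the 10 genes lay between -0.51 for Bbc3 and 0.29 for Bcl2a1d.

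Whether the response to LPS or to age differed between the conditions was tested as an interaction. For LPS, 0 members passed beside 0% of all genes, and 1 had an unadjusted p under 0.05, Bcl2a1b (difference of log2 fold changes 0.75, SE 0.32, unadjusted p = 0.0215, adjusted p = 0.715). For Bcl2a1a the difference was 0.71 (SE 0.41, adjusted p = 0.888) and for Mcl1 0.21 (SE 0.33, adjusted p = 0.983). For the summed A1 genes it was 0.77 (SE 0.33, unadjusted p = 0.0239, adjusted p = 0.728 in the same edgeR test). For age, 0 members passed beside 0.0299% of all genes, and the 1 with an unadjusted p under 0.05 was Bbc3 (difference 1.81, SE 0.81, unadjusted p = 0.0298, adjusted p = 0.437). DESeq2 and the likelihood-ratio test called 0 members in both interactions, and the share of all genes was not taken there. Calls in 1 condition and not in the other, such as Bcl2a1b after LPS or Bbc3 with age, were not shown to differ between conditions.

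The make-up of the A1 transcripts shifted with age and again with LPS, and the means of ELS and CTR mice lay close together, a difference that was not tested. Each gene's CPM was set against the sum of the A1 genes in the same mouse (Bcl2a1c, at under 1% of the sum in each group mean, included), a measure chosen after the values were seen. At P9 Bcl2a1b made up 73.9 ± 6.31% of the sum in CTR (SD, n = 12) and 74.6 ± 5.61% in ELS (n = 13). After PBS at P200 it made up 53.25 ± 2.89% (n = 7) and 50.6 ± 2.12% (n = 6), and after LPS 35.1 ± 4.02% (n = 7) and 34.5 ± 5.48% (n = 5).

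**Figure D4:**
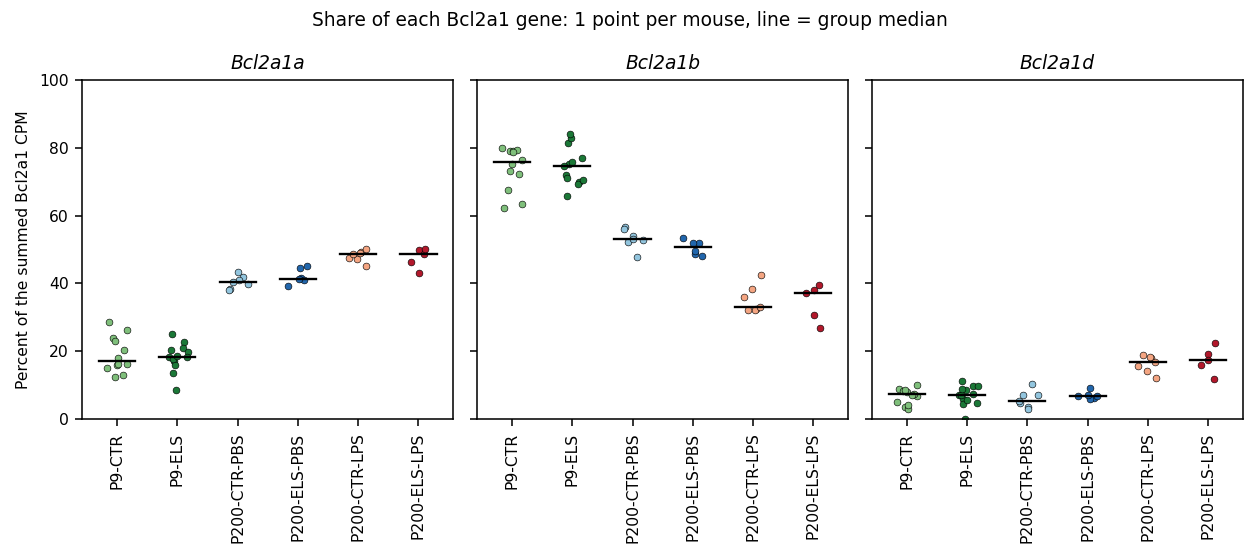
Percent of the summed Bcl2a1 CPM taken by Bcl2a1a, Bcl2a1b and Bcl2a1d, 1 point per mouse and a line at the group median. Bcl2a1b steps down from P9 to P200 and again after LPS with no overlap, Bcl2a1a steps up, and Bcl2a1d rises after LPS alone, to 16.3 ± 2.46% in CTR and 17.34 ± 3.96% in ELS.

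The P9 and P200 shares of Bcl2a1b did not overlap in either condition (2-sided exact permutation test, p = 3.97e-05 in CTR and 7.37e-05 in ELS, both adjusted to 0.000221 over 12 tests, the first 2 being the smallest p these groups allow). The PBS and LPS shares did not overlap either (exact permutation p = 0.000583 in CTR and 0.00433 in ELS, adjusted p = 0.000999 and 0.00577, again the smallest possible). Bcl2a1a took 19.0 ± 5.31% in CTR at P9, 40.4 ± 1.93% after PBS and 48.1 ± 1.63% after LPS, each step without overlap. In ELS it took 18.17 ± 4.19%, 42.1 ± 2.30% and 47.5 ± 2.90%, and the PBS and LPS mice overlapped (39.1 to 45.1% against 43.1 to 50.0%, exact permutation p = 0.0173, adjusted p = 0.0208). Bcl2a1d took 6.68 ± 2.26% and 5.78 ± 2.46% at the 2 ages in CTR (exact permutation p = 0.422, adjusted p = 0.460) and 16.3 ± 2.46% after LPS (exact permutation p = 0.000583, adjusted p = 0.000999). The sizes of the shares depend on which part of each near copy can be counted, as shown by the sequences above, and the shares of a mouse sum to a fixed total, so these tests are not independent of each other. The permutations treated mice as independent, although some shared a nest, and the shares were not tested by nest.

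Other genes of the death and survival pathways gave the setting for the 10. Of the 13 other BCL2 family genes tested (of 16 listed), 2 rose and 1 fell with LPS in CTR, and 2 rose in ELS. Of all genes tested, 14.9% were called with LPS in CTR and 12.3% in ELS. Both that rose encode BH3-only proteins: Pmaip1 (NOXA, a partner of MCL1) went from 14.3 ± 5.15 to 43.5 ± 14.5 CPM in CTR (adjusted p = 2.66e-05) and from 14.7 ± 7.62 to 49.4 ± 23.3 CPM in ELS (adjusted p = 5.26e-05). Bmf went from 65.6 ± 9.65 to 198 ± 74.4 CPM in CTR (adjusted p = 7.78e-06) and had a log2 fold change of 1.09 in ELS (adjusted p = 0.00779). Bid, which links death receptors to mitochondria, fell in CTR (log2 fold change -0.59, adjusted p = 0.00629).

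Downstream of the mitochondria, 2 of 15 genes rose with LPS in CTR, and 2 rose and 1 fell in ELS. The counts in this paragraph stand beside 14.9% of all genes called in CTR and 12.3% in ELS. Several of them lie near these shares. Apaf1, the scaffold of the apoptosome, rose 4.52-fold in CTR (adjusted p = 4.92e-08) and 4.08-fold in ELS (adjusted p = 2.93e-06). Of 8 genes of the inhibitor of apoptosis family, 1 rose in each condition, Birc3 (cIAP2), from 60.4 ± 30.8 to 376 ± 56.1 CPM in CTR (adjusted p = 1.52e-11) and to 411 ± 206 CPM in ELS. Of 13 p53 pathway genes, 5 rose and 1 fell in CTR, and 1 rose and 1 fell in ELS: Cdkn1a, which encodes the cell cycle inhibitor p21, rose 10.9-fold and 17.21-fold, and Sesn1 fell in both (log2 fold changes -1.38 and -1.53).

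Of 13 genes tested that carry survival signals to the family, 7 rose in CTR, and 4 rose and 1 fell in ELS. Among all genes tested, 14.9% were called in CTR and 12.3% in ELS, and the MCL1 turnover counts below lie near these shares. Pim1, a kinase, rose from 0.704 ± 0.526 to 67.8 ± 17.0 CPM in CTR (adjusted p = 3.41e-14) and from 0.521 ± 0.383 to 61.1 ± 28.1 CPM in ELS, and Stat3 rose 4.00-fold and 3.44-fold. Of 12 death receptor genes, 4 rose in each condition, among them Fas, from 1.39 ± 0.414 to 34.6 ± 18.8 CPM in CTR (adjusted p = 5.99e-10) and by 33.5-fold in ELS. Of the 6 genes that control MCL1 protein turnover, 1 rose in CTR (Huwe1, an MCL1 ubiquitin ligase, log2 fold change 0.83, adjusted p = 0.0132) and 1 fell in ELS (Gsk3b, log2 fold change -0.65, adjusted p = 0.0494).

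With age 3 of the 13 other BCL2 family genes tested rose and 6 fell in CTR, and 2 rose and 5 fell in ELS, beside the 44.1% and 42.2% of all genes called. Pmaip1 fell from 49.5 ± 5.97 to 14.3 ± 5.15 CPM in CTR (adjusted p = 2.73e-07) and also in ELS (log2 fold change -1.71, adjusted p = 1.96e-06), and Bcl2l12 fell in both. Of the 15 downstream genes 5 fell and 0 rose in CTR, and 5 fell and 1 rose in ELS, and Aifm1, a mitochondrial flavoprotein, fell in both (log2 fold changes -1.12 and -1.20). Of the 13 p53 pathway genes 7 fell and 1 rose in CTR, and 4 fell and 1 rose in ELS, Cdkn1a from 95.9 ± 11.6 to 19.6 ± 4.95 CPM in CTR.

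Of the 8 inhibitor of apoptosis genes, 4 rose and 1 fell with age in CTR, and 3 rose and 1 fell in ELS. The counts in this paragraph stand beside 44.1% of all genes called in CTR and 42.2% in ELS. Birc3 rose 2.46-fold in CTR and 1.83-fold in ELS, and the 1 that fell was Birc5 (survivin), from 100.3 ± 17.9 to 0.836 ± 0.658 CPM in CTR, which is also on the list of cycling cell markers. Of the MCL1 turnover genes 3 of 6 fell in CTR and 2 in ELS. Of the survival signal genes 3 rose and 4 fell in CTR, and 4 rose and 4 fell in ELS, and of the 12 death receptor genes 4 rose and 2 fell in CTR, and 1 rose and 1 fell in ELS, where Ripk3 fell in both (4.01-fold and 3.44-fold).

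Between ELS and CTR, 1 gene of the 7 lists passed the test in any of the 3 comparisons. It was Ripk1, a death receptor kinase and 1 of 12 genes on its list, at P200 after PBS (24.7 ± 6.61 against 9.17 ± 3.69 CPM, adjusted p = 0.0466). Of all genes, 0.168% were called at P200 after PBS, and 0% at P9 and at P200 after LPS. No gene of the lists passed in either interaction, beside 0.0299% of all genes for age and 0% for LPS.

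Over the 25 P200 mice, the genes whose log2 CPM ran most like that of a member were named as a description, out of 8266 genes. For Mcl1 these were Ccl2 (Pearson r = 0.98, Spearman rho = 0.92), a chemokine, Btg1 (0.98 and 0.94) and Zfand5 (0.98 and 0.92). For the summed A1 genes they were Cxcl16 (0.91 and 0.88), a chemokine, Srgn (0.91 and 0.93) and Ctdnep1 (0.90 and 0.92). The 25 values include the difference between PBS and LPS mice. Within the 13 PBS mice r with Mcl1 was 0.85 for Ccl2, 0.695 for Btg1 and 0.45 for Zfand5. Within the 12 LPS mice it was 0.66, 0.81 and 0.88. With the summed A1 genes r was 0.66, 0.60 and 0.58 within the PBS mice and 0.81, 0.82 and 0.88 within the LPS mice.

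For Bcl2l11 the nearest genes were Map2k1, a kinase upstream of ERK (r = 0.88, rho = 0.87), Ppfia4 (0.86 and 0.88) and Mgme1 (0.86 and 0.86), with r of 0.86, 0.91 and 0.89 within the PBS mice and 0.67, 0.62 and 0.50 within the LPS mice. For Bcl2 they were Imp4 (0.81 and 0.75), 2410002F23Rik (0.72 and 0.61) and Psat1 (0.70 and 0.60). Their r was 0.86, 0.82 and 0.66 within the PBS mice and 0.65, 0.058 and 0.65 within the LPS mice. The mice differ in depth and some share a nest, and these values are a description only.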

How the data were processed

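Sorted hippocampal microglia of 50 mice were profiled by poly-A RNA sequencing, with 1 library per mouse. Per the submitters' processing notes, reads were converted with bcl2fastq 2.20, trimmed with cutadapt 2.10, mapped to GRCm39 with STAR and counted per gene with HTSeq 0.11.0. The authors deposited raw counts per gene of uniquely placed exonic reads, 1 file per mouse. The strand setting and annotation release are not given in the sources used here. Library totals ran from 5152838 to 42231258, and these bound the precision at low counts.

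Counts were analysed with edgeR 4.0.16 (R 4.3.3): genes at 1 CPM or above in over 2 of the mice, TMM scaling, group means for all 6 groups, quasi-likelihood tests of 9 contrasts, and Benjamini-Hochberg adjustment over 16696 genes, called at an adjusted p under 0.05. A second rule adds an absolute log2 fold change above 1. DESeq2 1.42.0 and limma 3.58.1 served as alternatives, with other filters, scalings, nest models and left-out mice. Gene places and sequences came from the GRCm39 genome and its GENCODE annotation.

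Levels of all 10 genes are given in all 6 groups, and where none was called the other genes are given by their range. Of each other gene list at most 3 genes per comparison are named, from those called with the largest absolute log2 fold change and a mean log2 CPM of at least 1, and for 4 measures the 3 most alike genes. Other genes that this rule takes are given in the counts only. The members and lists were chosen with earlier results of these data known. The shares of the Bcl2a1 genes were chosen after their values were seen and tested by exact permutation (SciPy 1.17.1).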

Additional observations from a re-analysis of the deposited data

Results flagged for a closer look

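Of 40 sets of values tested for a single mouse far from its group (10 genes in the 4 P200 groups, since the P9 groups hold over 10 mice and were not tested), 3 stood out, where chance gives about 1 in 20. Bcl2 stood at 16.6 CPM in P200 CTR PBS mouse 1 of nest 1, a mouse with few detected genes, against 0.229 to 5.18 CPM in the other 6 mice. Bcl2a1d stood at 8.84 CPM in P200 CTR PBS mouse 1 of nest 15, against 2.15 to 4.21 CPM in the others. Bax stood at 67.8 CPM in P200 ELS LPS mouse 2 of nest 11, against 34.8 to 38.9 CPM in the other 4 mice.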

How the results depend on the processing

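With an absolute log2 fold change above 1 also required, the members called went from 8 to 4 for age in CTR, from 4 to 2 for age in ELS and from 5 to 3 for LPS in CTR. With limma voom and the nest as random effect, 5 were called for age in CTR, and without the 3 mice with the fewest detected genes 8 were called for age in ELS. The cause was not tested. Shares of all genes called were taken in the main fit alone. In every other fit, here and below, a general gain or loss of calls cannot be told apart from one of the members. Leaving out each P200 mouse in turn (25 fits) gave 7 to 8 called for age in CTR, 3 to 4 for age in ELS, 5 to 6 for LPS in CTR, 4 to 6 for LPS in ELS and 0 to 0 in the 3 comparisons of ELS with CTR and both interactions. No P9 mouse was left out. These fits are therefore no check of the P9 comparison of ELS with CTR, and for age they check the adults alone. Of 3123 values of single members under the alternatives, 3073 kept their direction or stayed uncalled, 16 gained and 34 lost their call, and none that was called changed sign. Many of these values come from fits that left out a mouse outside the comparison, so they are not separate checks. Restricting the fit to the P200 mice, chosen after seeing the data, gave 5 called for LPS in each condition.

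Nest numbers were shared by PBS and LPS mice of a condition. Deviations of same-numbered mice from their group means correlated between -0.041 and 0.084, so the numbers were not taken to pair the mice. With the number as a replicate block, 4 members were called for LPS in CTR, 6 in ELS and 0 in the interaction, and Bcl2l11 lost its call in CTR (log2 fold change -0.47, adjusted p = 0.299). Bcl2 and Bbc3 were counted at a few CPM, where depth limits what can be detected.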
